A study of Mus musculus with 2 samples.

Results

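The kinesin genes of mouse neural stem cells were examined, with the motors that work in cell division set against the remaining members, many of which carry cargo. The members were all genes of the deposited table whose symbol begins with Kif followed by a digit or with Kifc. That gave 40 of 15953 genes. The mitotic group held 12 genes listed for their work in cell division (Kif2c, Kif4, Kif11, Kif14, Kif15, Kif18a, Kif18b, Kif20a, Kif20b, Kif22, Kif23 and Kifc1), and the other 28 formed the comparison group. Among those 28, Kif1bp encodes a protein that binds kinesins and is no motor. Kif2a, Kif24, Kif7, Kif26a and Kif26b, in the same group, are described below by roles other than carrying cargo. Kifc5b is a close copy of Kifc1, so its reads cannot be cleanly told from those of that mitotic gene. The members were chosen by gene name and known role, with earlier results of these data known.

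The cells were neural stem cells in suspension culture, with 1 library from cells labelled Hikeshi_cKO, a conditional knockout of the HSP70 import carrier gene Hikeshi, and 1 library from cells labelled Wild_Type. The sources used here do not give the driver of the deletion, the age of the mice or the number of animals behind each library. With 1 library per genotype no test between genotypes exists. Each ratio below compares these libraries, and its 95% interval (exact conditional binomial, Clopper-Pearson) covers counting error only. Since the reads carried no stated molecular identifiers, duplicates may make it too narrow even for that.

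The libraries held 18912683 reads (cKO) and 18839079 reads (wild type). Hikeshi itself had 640 reads in the cKO library and 718 in the wild-type library, a ratio of 0.888 (0.797 to 0.989). No label names the deleted exons, so this value does not check the labels. The 4 Y-linked genes Eif2s3y, Ddx3y, Kdm5d and Uty had between 305 and 1265 reads in the cKO library and at most 1 read each in the wild-type library. In every result below the genotype and the sex of the cells cannot be told apart. All 10 neural stem cell markers on the list reached 1 CPM, but their levels were not alike. At least 1.5-fold lower were 4 of them (Prom1, Sox9, Slc1a3 and Fabp7, with ratios from 0.5195 to 0.661), beside 10.2% of all genes that reached 1 CPM in at least 1 library. At least 1.5-fold higher was 1, Vim (1.69), beside 4.22% of those genes, and Sox2 had a ratio of 0.993. All 7 astrocyte markers were at least 1.5-fold lower, beside the same 10.2%, and summed to 698 TPM in the cKO library and 1643 TPM in the wild-type library. Of 9 kept oligodendrocyte lineage markers 8 were at least 1.5-fold lower, again beside 10.2%. The list summed to 58.0 TPM in the cKO library and 553 TPM in the wild-type library. The 4 of 6 microglial markers that the table lists had 5 reads (cKO) and 7 reads (wild type), and the 3 of 5 endothelial markers 74 reads (cKO) and 42 reads (wild type). The deposited table lists no gene at 0 in both libraries. The part of these cell types in the kinesin results was not tested. In bulk RNA, fewer cells of a type and less RNA per cell cannot be told apart.

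Kinesins are motors that use ATP to move along microtubules or to take them apart. The mitotic members build the bipolar spindle, align and separate chromosomes and finish cytokinesis, and in cycling cells they are made mainly in the G2 and M phases. The transport members carry vesicles, mitochondria, RNA and the parts of cilia, and several of them are at their highest in neurons. Many genes of the late cell cycle carry a short promoter sequence called the cell cycle genes homology region (CHR), which is bound by the DREAM repressor complex and by the activators MYBL2 and FOXM1, often near a CCAAT box, the site of the factor NF-Y.

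Promoter sequences were available from RefSeq (GRCm38.p6) for 32 of the 40 members, in 36 windows of 300 bases that run from 250 bases before to 50 bases after the annotated start. Kif5a, Kif5b, Kif13b, Kif19a, Kif20a, Kif21b, Kifc2 and Kifc3 had no entry. The CHR was searched on both strands as TTTGAA, which reads TTCAAA on the opposite strand, and as TTCGAA, which reads the same on both. The windows of 8 mitotic kinesins that hold these letters within 30 bases of the start are shown first, from 60 bases before to 30 bases after it, then that of Kif18a, a mitotic member without them, and of Kif3b, a transport motor. Capitals mark the CHR letters, and each sequence reads 5′ to 3′ in the direction of the gene.
Kif11 (chr19:37376322-37376411, plus strand): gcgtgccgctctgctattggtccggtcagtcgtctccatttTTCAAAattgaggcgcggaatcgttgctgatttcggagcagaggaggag
Kif15 (chr9:122951021-122951110, plus strand): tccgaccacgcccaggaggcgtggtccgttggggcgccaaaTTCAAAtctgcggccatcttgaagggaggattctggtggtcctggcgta
Kif22 (chr7:127042391-127042480, minus strand): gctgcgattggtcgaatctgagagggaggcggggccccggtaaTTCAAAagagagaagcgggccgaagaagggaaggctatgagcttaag
Kifc1 (chr17:33890604-33890693, minus strand): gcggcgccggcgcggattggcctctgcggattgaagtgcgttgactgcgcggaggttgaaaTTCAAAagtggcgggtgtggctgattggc
Kif23 (chr9:61946770-61946859, minus strand): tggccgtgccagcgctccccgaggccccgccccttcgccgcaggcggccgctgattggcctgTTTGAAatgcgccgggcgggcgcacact
Kif18b (chr11:102925095-102925184, minus strand): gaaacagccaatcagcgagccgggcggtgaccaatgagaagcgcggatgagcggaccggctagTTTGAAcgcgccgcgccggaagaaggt
Kif20b (chr19:34922298-34922387, plus strand): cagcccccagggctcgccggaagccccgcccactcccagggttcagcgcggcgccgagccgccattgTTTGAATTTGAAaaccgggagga
Kif4 (chrX:100626005-100626094, plus strand): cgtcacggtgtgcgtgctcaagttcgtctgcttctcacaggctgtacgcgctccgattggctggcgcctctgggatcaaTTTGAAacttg
Kif18a (chr2:109280678-109280767, plus strand): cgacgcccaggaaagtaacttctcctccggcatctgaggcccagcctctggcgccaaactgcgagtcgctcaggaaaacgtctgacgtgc
Kif3b (chr2:153291356-153291445, plus strand): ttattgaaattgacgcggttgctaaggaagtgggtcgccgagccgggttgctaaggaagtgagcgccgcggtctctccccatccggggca

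The CHR letters stood in 10 of the 11 mitotic windows. They stood in 5 of 25 windows of the other kinesins, in 13.4% of 13036 windows of genes that passed the expression filter, and in 19.2% of all 32851 promoter windows. Within 30 bases of the start, a distance chosen after the positions had been seen, they stood in 8 of the 11 mitotic windows, in 2 of the 25 other windows and in 2.06% of the windows of filtered genes. In Kif11 and Kif15 the letters began 19 bases before the start, and in Kif22 17 bases before it. In Kifc1, Kif23 and Kif18b they began 2, 3 and 4 bases into the transcript. Kif20b held them in tandem, at bases 8 to 13 and 14 to 19, and Kif4 at bases 20 to 25. Kif14 and Kif2c had their match further upstream, at -228 and -103. Both windows, counted among the 10, lie wholly inside the gene, away from its outermost start. The Kif14 window begins at 136467598 (gene from 136466301, plus strand). That of Kif2c reaches up to 117179022 (gene up to 117182624, minus strand). Some windows of the other kinesins, such as those of Kif27 and Kif3a, also lie inside the gene. For Kif11, Kif23 and Kif2c a short stretch just after the start was found in no GENCODE transcript of the gene. For the other mitotic windows it was found, but it could lie anywhere in a transcript. All positions therefore rest on the RefSeq start alone. In the other group the matches near the start belonged to Kif24 and Kif26b, while Kifc5b had one at bases 30 to 35. Of the 23 windows of non-kinesin partners of the mitotic motors, 17 held the letters. CCAAT, searched with its reverse complement ATTGG, was found in 7 of 11 mitotic windows, 10 of 25 other windows and 38.0% of windows of filtered genes. A match of letters is a description and no evidence of a factor at the site.

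**Figure D1:**
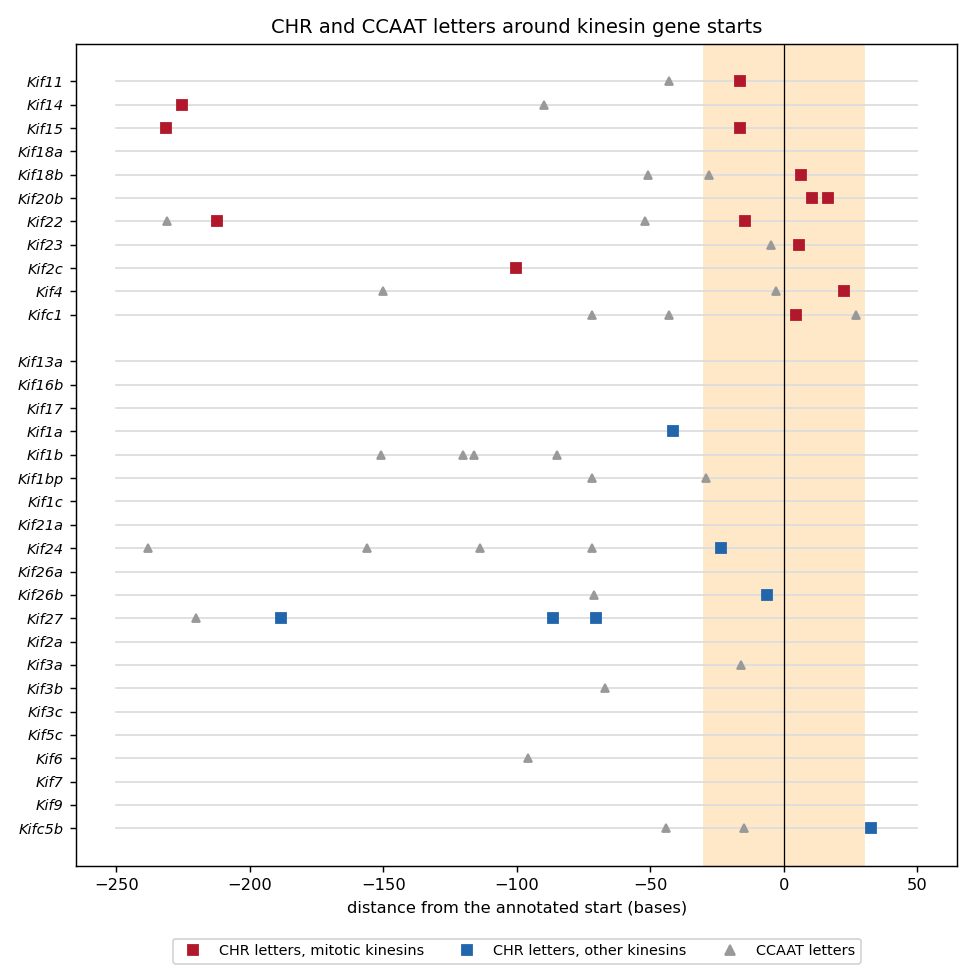
Position of CHR letters (squares) and CCAAT letters (triangles) from 250 bases before to 50 bases after the annotated start for the 32 kinesin genes with a promoter entry, 1 line per gene, with genes of several windows drawn on 1 line. The shaded band marks 30 bases to either side of the start, in which 8 of 11 mitotic kinesins and 2 of the other windows carry CHR letters.

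All 12 mitotic kinesins were higher in the library labelled cKO. Together they had 13579 reads in the cKO library and 9444 in the wild-type library, or 718 CPM (reads per 1000000 reads counted) in cKO and 501 CPM in wild type, a ratio of 1.43 (1.395 to 1.47). Differences are given on the log2 scale, cKO over wild type, with 1 CPM added on either side, so those of low genes are too small, and genes are counted as higher or lower on this scale. The median over the 12 was 0.44, beside -0.02 over the 12618 genes that reached 1 CPM in at least 1 library. A difference above 0 was shared by 12 of 12 members and by 47.8% of the 12618 genes. All 12 were at least 25% higher, as were 13.0% of the kept genes. At least 1.5-fold higher were 3 of the 12, beside 4.22% of the kept genes, and at least 2-fold higher was 1 of the 12, beside 158 of the 12618. The members thus lay on 1 side of 0, most of them by less than 1.5-fold, with Kif20b and Kif18a ahead of the rest.

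**Figure D2:**
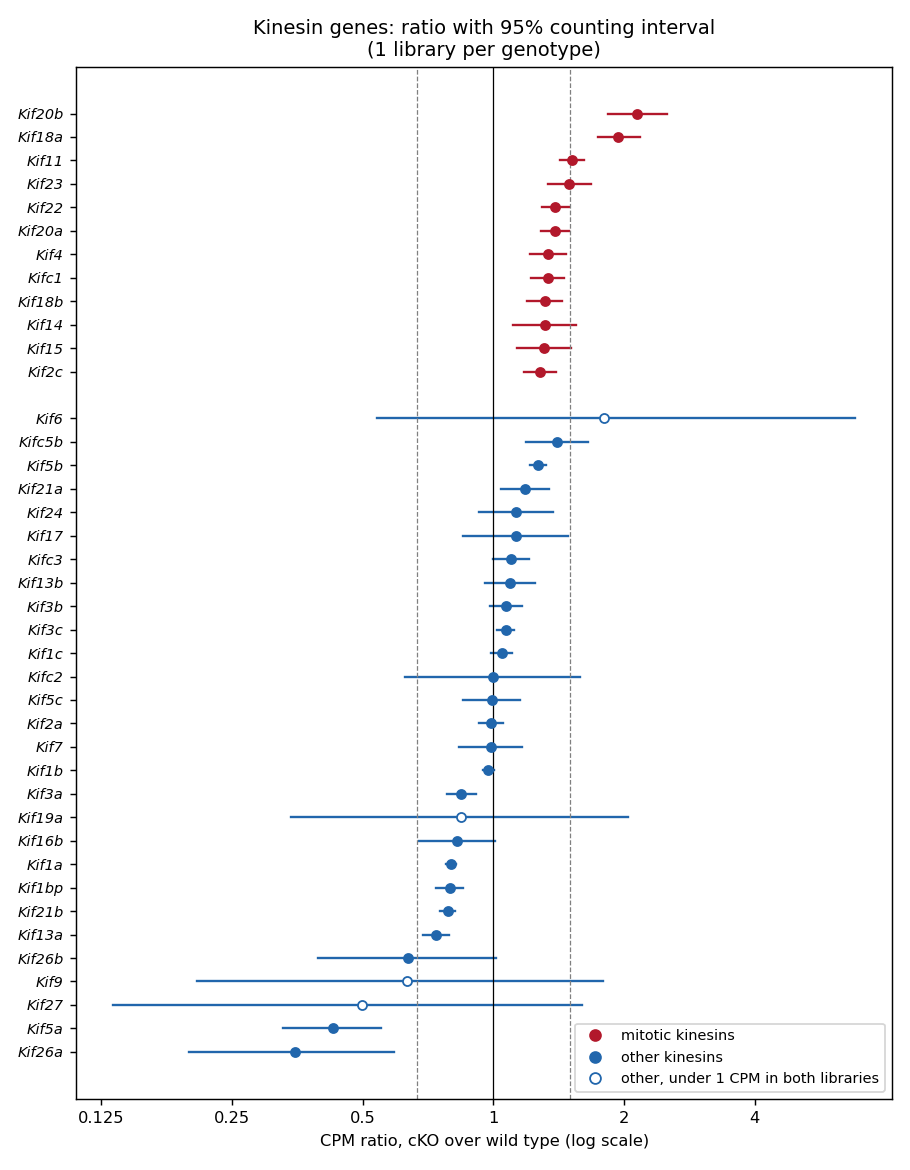
CPM ratio of each kinesin gene, cKO over wild type, on a log axis, with the 95% counting interval as a bar, for 1 library per genotype. Dashed lines mark 1.5-fold in either direction. The 12 mitotic members lie between 1.28 and 2.14 with every interval above 1, while the other members spread to both sides of 1 and open circles mark the 4 members under 1 CPM in both libraries.

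The motors of cytokinesis and the central spindle covered the widest range. Kif20b (Entrez 240641, chromosome 19, 34922335 to 34975750), a kinesin-6 that acts late in cytokinesis and is needed for normal growth of the mouse cortex, had 518 reads in the cKO library and 241 in the wild-type library. Its ratio of 2.14 (1.83 to 2.51) placed it above 98.8% of the kept genes. Kif23, the motor subunit of the centralspindlin complex that builds the cleavage furrow, had 746 reads in the cKO library against 497 in the wild-type library, a ratio of 1.495 (1.33 to 1.68), just short of the 1.5-fold mark. Kif20a, which brings Aurora B kinase to the central spindle, had 1663 cKO reads against 1196 wild-type reads (1.385, 1.285 to 1.49). Its deposited reads were not whole numbers, and the gene overlaps Cdc23 and Brd8. Kif14, which places citron kinase at the midbody, had the fewest reads of the 12, with 336 reads in the cKO library and 255 in the wild-type library (1.31, 1.11 to 1.55). Within the kinesin-6 family the interval of Kif20b did not overlap those of Kif20a and Kif23, so Kif20b stood above its relatives by more than counting error.

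The motors that set spindle length and chromosome alignment also differed among themselves. Kif18a (Entrez 228421, chromosome 2, 109280738 to 109341749), which damps the movements of chromosomes at the spindle equator, had 947 reads in the cKO library and 486 in the wild-type library, a ratio of 1.94 (1.74 to 2.17). Its overlapping neighbour Mettl15 had 269 reads (cKO) and 287 (wild type), a ratio of 0.934. The closest relative Kif18b, which trims microtubules that reach the cell cortex, had 1044 cKO reads against 792 wild-type reads, a ratio of 1.31 (1.20 to 1.44) whose interval lay wholly below that of Kif18a. Kif2c, a microtubule-destroying kinesin that corrects faulty attachments at centromeres, had 1214 cKO reads against 944 wild-type reads and the smallest ratio of the 12, 1.28 (1.18 to 1.40). Kif22, a motor on chromosome arms that pushes them to the equator, had 1868 cKO reads against 1341 wild-type reads (1.39, 1.29 to 1.49), and Kif4, a chromosome-bound motor that also works with PRC1 in the midzone, had 991 cKO reads against 740 wild-type reads (1.33, 1.21 to 1.47).

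The motors that separate and focus the spindle poles lay in between. Kif11 (Entrez 16551, chromosome 19, 37376382 to 37421863), the motor that slides spindle microtubules apart, had 2543 reads in the cKO library and 1669 in the wild-type library, the most reads of the 12 in either library, and a ratio of 1.52 (1.43 to 1.62). Kif15, which can stand in for KIF11, had 451 cKO reads against 343 wild-type reads (1.31, 1.14 to 1.51). The intervals of Kif11 and Kif15 overlapped. Kifc1, a motor that walks the other way and gathers microtubules at the poles, had 1258 cKO reads against 940 wild-type reads (1.33, 1.22 to 1.45). Kifc5b had 354 cKO reads against 252 wild-type reads (1.399, 1.19 to 1.65), and the sum of both copies gave 1.35 (1.249 to 1.45). Kifc5b took 22.0% of the pair's reads in the cKO library (exact interval 20.0% to 24.1%) and 21.1% in the wild-type library (18.9% to 23.6%). The deposited reads of both copies were not whole numbers, and how shared reads were divided between them is not stated. These intervals therefore cannot show whether the split between the copies differed.

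**Figure D3:**
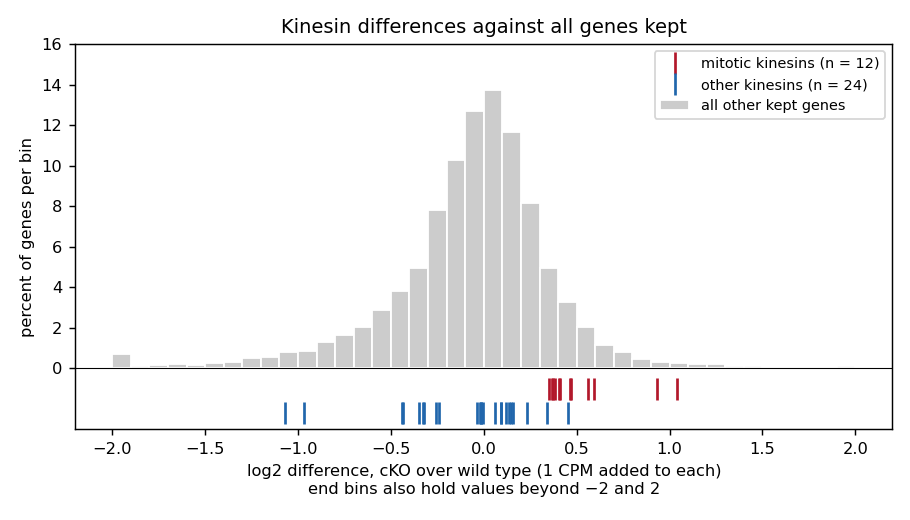
Distribution of the log2 difference, cKO over wild type, over all kept genes that are not kinesin members (grey bars, percent of genes per bin of 0.1), with 1 tick for each of the 12 mitotic and 24 other kinesins that passed the filter, drawn below the bars; the end bins also hold values beyond -2 and 2. The mitotic ticks run from 0.35 to 1.04, all on the right of the main peak, and the other ticks from -1.07 to 0.46.

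The other kinesins showed no common direction. Of the 28, 24 passed the filter, with 10 above 0 and 14 below (52.2% of all kept genes were below), and a median of -0.02, as over all kept genes. With TMM scaling the split was 14 above and 10 below. At 1.5-fold or more, 0 of the 24 were higher, against 4.22% of all kept genes, and 2 were lower, against 10.2%. Mitotic and other members at least 1.5-fold apart in either direction thus came to 5 of 36, beside 14.4% of all kept genes. At least 25% higher were 2 of the 24 (Kifc5b and Kif5b), and at least 20% lower were 6 (Kif1bp, Kif21b, Kif13a, Kif26b, Kif26a and Kif5a), beside 13.0% and 20.1% of all kept genes. Their summed reads were 46854 in the cKO library and 50083 in the wild-type library, a ratio of 0.932 (0.920 to 0.944). Kif1a and Kif1b alone held 42.2% of the reads of the non-mitotic members other than Kif1bp in the cKO library and 45.25% in the wild-type library. The medians of the mitotic and other groups stood 0.45 apart, and the gap ran from 0.42 to 0.64 over the 11 alternatives tried.

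Kinesin-1, the founding cargo motor, differed in direction among its heavy chain genes. Kif5b, the form made in most cells, had 5328 reads in the cKO library and 4192 in the wild-type library, a ratio of 1.27 (1.22 to 1.32). Kif5a (Entrez 16572, chromosome 10, 127225695 to 127266348), the form of neurons, had 87 cKO reads against 203 wild-type reads and was 2.34-fold lower in the cKO library (1.81 to 3.05). Kif5c, the other neuronal form, had 360 cKO reads against 362 wild-type reads (0.991, 0.854 to 1.15). As a share of kinesin-1 TPM, which allows for length, Kif5b made up 93.1% in the cKO library and 89.3% in the wild-type library, and Kif5a 1.38% (cKO) and 3.97% (wild type). Dctn2, which overlaps Kif5a and encodes a dynactin subunit, had a ratio of 0.870 (0.829 to 0.912). Of the 10 neuronal markers, 9 were kept, and they moved both ways. At least 1.5-fold higher were 3 (Nefm at 2.49, Gap43 at 1.97 and Nefl at 1.77), beside 4.22% of all kept genes. At least 1.5-fold lower were 2, beside 10.2%, namely Dcx with 80 cKO reads against 824 wild-type reads and Snap25 with 449 cKO reads against 775 wild-type reads. The list summed to 746 TPM (cKO) and 525 TPM (wild type), of which Gap43 alone held 535 TPM (cKO) and 273 TPM (wild type). The part of neuronal cells in the value of Kif5a was not tested.

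Kinesin-3 motors, which move vesicles and endosomes, were level or lower. Kif1a, a carrier of synaptic vesicle precursors, had the highest TPM of all members in both libraries and 10179 reads in the cKO library against 12658 in the wild-type library (0.801, 0.780 to 0.822). Kif13a, which moves endosomal cargo, had 1476 cKO reads against 1994 wild-type reads (0.737, 0.689 to 0.789). Kif16b, an early endosome motor, had 182 cKO reads against 220 wild-type reads (0.824, 0.673 to 1.01). No large difference was seen for the mitochondrial and vesicle motor Kif1b with 9022 cKO reads against 9232 wild-type reads (0.973, 0.9455 to 1.002), for Kif1c with 2663 cKO reads against 2539 wild-type reads (1.045, 0.989 to 1.10) or for Kif13b with 467 cKO reads against 426 wild-type reads (1.09, 0.9555 to 1.248). Intervals of Kif1a and Kif13a thus lay below 1, while those of Kif16b, Kif1b, Kif1c and Kif13b held 1. Kif14, the mitotic member of the same family, was the only one of its 7 genes with an interval above 1.

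Kinesin-2, the motor of cilia and of several neuronal cargoes, had subunits on both sides of 1. Kif3a, the shared subunit, had 1231 reads in the cKO library and 1452 in the wild-type library (0.8445, 0.782 to 0.912). Its partners Kif3b, with 1160 cKO reads against 1081 wild-type reads (1.07, 0.983 to 1.16), and Kif3c, with 4442 cKO reads against 4148 wild-type reads (1.07, 1.02 to 1.11), had intervals wholly above that of Kif3a. Kifap3, the adaptor that joins these motors to cargo, had 1591 cKO reads against 1869 wild-type reads (0.848, 0.793 to 0.907). Kif17, a homodimer that carries NMDA receptor vesicles in neurons, had 113 cKO reads against 100 wild-type reads (1.13, 0.852 to 1.49).

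Among kinesin-4 genes the neuronal motor Kif21b had 4508 reads in the cKO library and 5716 in the wild-type library (0.786, 0.755 to 0.817), and its relative Kif21a 550 cKO reads against 463 wild-type reads (1.18, 1.04 to 1.34). The relatives thus stood on opposite sides of 1. Kif7, which organises the tip of the cilium in hedgehog signalling, had 282 cKO reads against 285 wild-type reads (0.986, 0.833 to 1.17), and it overlaps Ticrr, which had a ratio of 1.35 (1.17 to 1.56). Kif27, a relative of Kif7, had 5 cKO reads against 10 wild-type reads. Kinesin-13 genes outside the mitotic list were near 1, with Kif2a, a depolymerase of spindle poles and of growing neurites, at 1830 cKO reads against 1845 wild-type reads (0.988, 0.926 to 1.06), and Kif24, a centriole enzyme that holds back cilia, at 225 cKO reads against 199 wild-type reads (1.13, 0.9265 to 1.37). The interval of Kif2a did not overlap that of its mitotic relative Kif2c. However, the deposited reads of Kif2a were not whole numbers, and it overlaps Dimt1, which had a ratio of 1.24 (1.11 to 1.38). The intervals do not cover how reads were assigned.

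Kinesin-11, made of atypical members that bind microtubules without working as motors, had the lowest summed ratio of any kinesin family, with 52 reads in the cKO library and 107 in the wild-type library (0.484, 0.341 to 0.680). Kif26a (Entrez 668303, chromosome 12, 112143974 to 112181747) had 20 reads in the cKO library and 57 in the wild-type library and was 2.86-fold lower (1.69 to 5.03). Kif26b had 32 cKO reads against 50 wild-type reads (0.6375, 0.396 to 1.01). Both are at under 1 TPM in each library, so these values rest on few reads. The minus-end motors Kifc2, at 40 cKO reads and 40 wild-type reads, and Kifc3, at 911 cKO reads against 825 wild-type reads (1.10, 1.0 to 1.21), were close to 1. Of the motors of motile cilia, Kif6 had 9 cKO reads and 5 wild-type reads, Kif9 had 7 cKO reads and 11 wild-type reads, and Kif19a had 11 cKO reads and 13 wild-type reads. These and Kif27 did not pass the filter. Of 7 markers of ciliated ependymal cells, 5 were listed, with 221 reads (cKO) and 292 reads (wild type) in all. Most of these reads belonged to Foxj1, with 184 reads (cKO) and 224 reads (wild type). Kif1bp, the kinesin-binding protein that keeps several motors off microtubules, had 1360 cKO reads against 1705 wild-type reads (0.7945, 0.739 to 0.854).

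**Figure D4:**
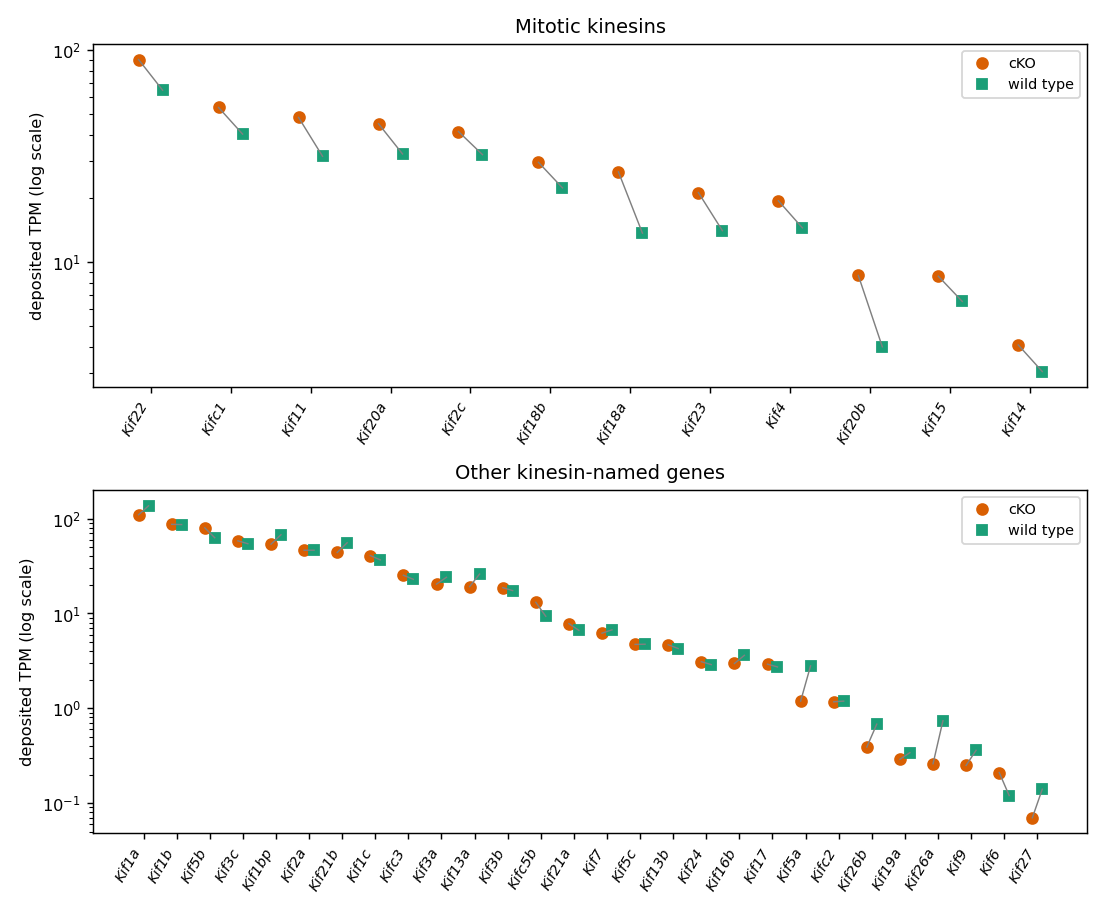
Deposited TPM of every kinesin gene in the cKO library (circles) and the wild-type library (squares) on a log axis, mitotic members above and the others below, ordered by the cKO value. Every mitotic circle is above its square, while in the lower panel Kif5b and Kifc5b lie higher and Kif1a, Kif21b, Kif13a, Kif5a and Kif26a lower in the cKO library.

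On the deposited TPM scale, which divides by length and lets genes be set side by side, Kif1a led with 110 TPM in the cKO library and 137 TPM in the wild-type library. Second place was held by Kif22 in the cKO library, with 90.4 TPM there against 64.8 TPM in the wild-type library, and by Kif1b in the wild-type library (87.2 TPM in cKO, 86.7 TPM in wild type). Among the mitotic members the order by TPM in the cKO library began with Kif22, Kifc1 (53.7 TPM in cKO against 40.2 TPM in wild type) and Kif11 (48.2 TPM in cKO against 31.6 TPM in wild type) and ended with Kif15 (8.59 TPM in cKO against 6.53 TPM in wild type) and Kif14 (4.07 TPM in cKO against 3.05 TPM in wild type). Ranked by TPM among the 40, Kif20b was at place 23 in the cKO library and 28 in the wild-type library, and Kif18a at 15 (cKO) and 21 (wild type). The mitotic genes made up 39.8% of the summed TPM of the 39 members other than Kif1bp in the cKO library and 31.2% in the wild-type library. By reads the share was 23.0% (exact interval 22.7% to 23.3%) in cKO and 16.3% (16.0% to 16.6%) in wild type. The share of mitotic genes was thus larger in the cKO library, while the summed reads of all 40 members had a ratio of 1.01 (0.9999 to 1.02).

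TPM ratios and CPM ratios of the same gene were compared as a check, since the lengths used for TPM are not stated. For 33 of the 36 kept members both ratios were within 5% of each other. The exceptions were Kif1c, whose TPM ratio was 1.06 times its CPM ratio, Kif7 at 0.936 times and Kif26b at 0.900 times. All 12 mitotic members were within the 5%.

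GC content varied along with the differences. Over all kept genes the tenth of lowest GC had a median difference of 0.12 and the tenth of highest GC -0.09. Mitotic kinesins had a median transcript GC of 47.3%, against 49.7% for all kept genes, and the leading members Kif20b (39.4%) and Kif18a (38.2%) had the lowest GC of the 12. Across the 12 genes Pearson's r between GC and the difference was -0.72, given as a description of genes that share both libraries. With the GC trend removed, the 12 differences ran from 0.30 to 0.92 with a median of 0.47, all above 0, and Kif20b and Kif18a still led with 0.92 and 0.79. Kif11 then stood at 0.51, under the 1.5-fold mark. Kif2a, at 38.6% GC, had a difference of -0.02 before and -0.15 after the trend was removed.

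**Figure D5:**
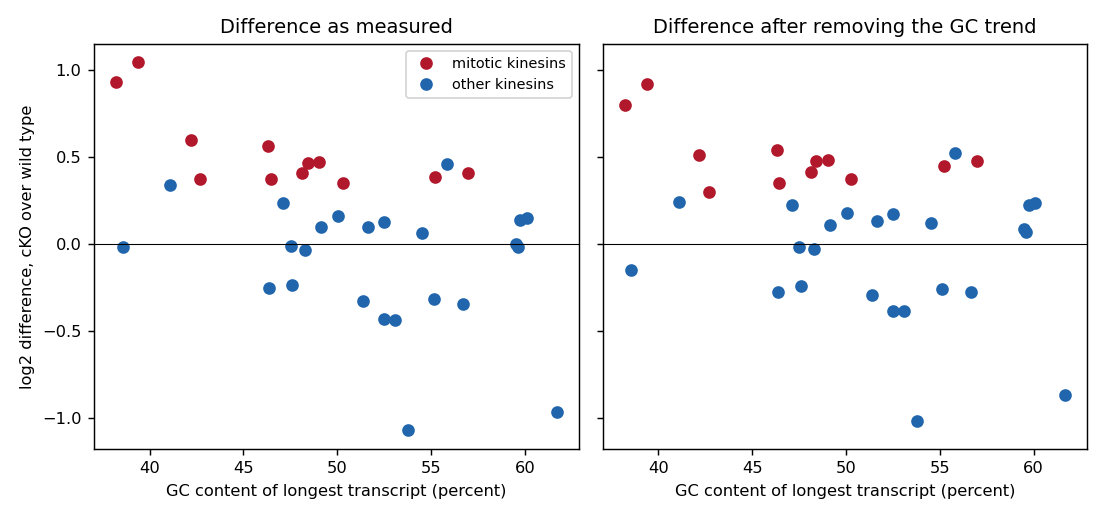
Log2 difference, cKO over wild type, against GC content of the longest transcript for the 36 kept kinesin genes, as measured (left) and after a smooth trend over all kept genes was removed (right). Mitotic members stay above 0 in both panels, from 0.35 to 1.04 on the left and from 0.30 to 0.92 on the right.

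A pair of kinesins without Kif in their symbol was read separately. Cenpe, the kinetochore kinesin that carries chromosomes to the equator, had 960 reads in the cKO library and 414 in the wild-type library (2.31, 2.06 to 2.60), a higher ratio than any of the 12. Stard9, a kinesin of the centrosome, had 239 cKO reads against 253 wild-type reads (0.941, 0.785 to 1.13). The 25 non-kinesin partners of the mitotic motors were mostly higher, with 24 above 0 against 47.8% of all kept genes and a median of 0.38. At 1.5-fold or more, 5 were higher and 0 lower, against 4.22% and 10.2% of all kept genes. With the GC trend removed the 5 became 3, and with TMM or DESeq2 scaling or 0.1 CPM added in place of 1 they became 6. The spindle protein gene Hmmr had 1290 cKO reads against 719 wild-type reads (1.79, 1.63 to 1.96) and the condensin subunit gene Ncapg 850 cKO reads against 486 wild-type reads (1.74, 1.56 to 1.95). The other 3 at 1.5-fold or more with 1 CPM added were Ect2 (1.55), Aurka (1.54) and Nusap1 (1.54). Anln, with 1103 cKO reads against 728 wild-type reads (1.51, 1.37 to 1.66), fell just short on that scale. Tpx2, which recruits KIF11 and KIF15 to the spindle, had 3025 cKO reads against 2246 wild-type reads (1.34, 1.27 to 1.42). Prc1, the midzone partner of KIF4, had 3361 cKO reads against 2366 wild-type reads (1.42, 1.34 to 1.49), and Racgap1, the other component of centralspindlin, 3828 cKO reads against 2967 wild-type reads (1.29, 1.22 to 1.35). Numa1, which anchors dynein at the poles, was the 1 member below 0, at 1767 cKO reads against 1799 wild-type reads (0.978, 0.916 to 1.04).

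The lists around the transport motors had medians near or below 0. Of 24 listed light chains and cargo adaptors, 5 were above 0 and 19 below, beside 47.8% and 52.2% of all kept genes. Their median was -0.18, and 1 was at least 1.5-fold higher and 2 lower. The lower count was 1 with TPM or a filter of 5 CPM and 4 with 0.1 CPM added in place of 1. The kinesin-1 adaptor gene Sybu had 1432 reads in the cKO library and 922 in the wild-type library (1.55, 1.42 to 1.68), but fell short of 1.5-fold on the TPM scale and with the GC trend removed. The liprin gene Ppfia3 had 323 cKO reads against 525 wild-type reads and was 1.63-fold lower (1.42 to 1.88), and Ppfia4 had 6 cKO reads against 25 wild-type reads. Of 25 dynein and dynactin genes, which drive transport the other way, 0 were 1.5-fold apart (median -0.01). The same held for 21 intraflagellar transport and hedgehog genes (median -0.07). Of these, 1 reached 1.5-fold with TMM or DESeq2 scaling or with 0.1 CPM added in place of 1. That gene, Ccp110, had 561 cKO reads against 367 wild-type reads (1.52, 1.33 to 1.74). Among 21 tubulins and microtubule-associated proteins, 1 was at least 1.5-fold higher and 2 lower (median 0.05). The higher count was 2 with TMM or DESeq2 scaling, with 0.1 CPM added in place of 1, and with the GC trend removed. Tubb6, a beta-tubulin, had 6192 cKO reads against 3881 wild-type reads (1.59, 1.53 to 1.66). Tubb4a, a tubulin abundant in oligodendrocytes, had 489 cKO reads against 2235 wild-type reads and was 4.59-fold lower (4.16 to 5.07). Map1a, of neuronal microtubules, had 1129 cKO reads against 1993 wild-type reads and was 1.77-fold lower (1.65 to 1.91). These lists were chosen with earlier results of these data known and are given as counts, beside 4.22% higher and 10.2% lower among all kept genes.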

How the data were processed

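The authors deposited 1 table with estimated counts of reads per gene (about 90% of them whole numbers within 1e-06), TPM, FPKM and a normalized read count (a signal, named so per the file headers). Per the submitters' processing notes the build was GRCm38.p6. The sources used here do not give aligner, counter, annotation or strand setting, so reads of overlapping genes may not be separable. Columns were matched to libraries by the genotype in their names. Estimated counts were rounded to whole reads and scaled to CPM by library totals. Genes with at least 1 CPM in 1 library were kept. Ratios are of CPM, differences are log2 after 1 CPM was added, and calls are at 1.5-fold.

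Alternatives were TMM factors (edgeR 4.0.16), DESeq2 1.42.0 size factors, deposited TPM, other filters, a pseudocount of 0.1 CPM, other thresholds, the mean, other memberships and removal of a LOWESS trend (fraction 0.3, statsmodels 0.14.6) on the GC content of the longest GENCODE transcript, available for 98.7% of kept genes. On the TPM scale the filter and the added value were 1 TPM. The code for fold calls and intervals was run on counts simulated with counting error only. These hold no variation between cultures or animals, so the run does not check the calls between genotypes. Promoter letters came from RefSeq windows. For 30 of 36, a short stretch just after the start was found in a GENCODE transcript of the same gene in the same direction. It could lie anywhere in the transcript, so a match does not check the start. Those without a match were windows of the mitotic Kif11, Kif23 and Kif2c and of Kif1b, Kif2a and Kif5c. Every member is named, with its values for mitotic members and for others 1.5-fold apart. The members and lists were chosen with earlier results of these data known.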

Additional observations from a re-analysis of the deposited data

How the results depend on the processing

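With other thresholds the count of higher mitotic kinesins changed from 3 to 1 (at least 2-fold) and 12 (at least 25% higher), that of higher other kinesins from 0 to 2 (at least 25%), and that of lower other kinesins from 2 to 1 (at least 2-fold) and 6 (at least 20% lower). The lower count was also 1 with deposited TPM, where genes under 1 TPM in both libraries were left out, and with a filter of 5 CPM. Both settings remove Kif26a, whose TPM ratio was 0.351. It was 3 with 0.1 CPM added in place of 1. The summed ratio of the other kinesins was 0.946 with TMM and 0.954 with TPM, in place of 0.932. With Kif2a, Kif24 and Cenpe counted as mitotic the summed mitotic ratio was 1.39. The median of the other kinesins was -0.02, 0.01 with TMM and 0.03 with the GC trend removed, and their mean was -0.11. By means the gap between the groups was 0.64 in place of 0.45. Leaving out Kif1bp was added after the data were seen and gave a summed ratio of 0.937. By TMM, 4 members near 1 (Kifc2, Kif7, Kif5c and Kif2a) passed to the other side of it, by DESeq2 Kifc2, and by TPM Kif1b. No paired analysis was possible because each genotype had 1 library. Depth limits the members under 60 reads, such as Kif26a, Kif26b and Kifc2.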
